A study of Caenorhabditis elegans with 27 samples.

Results

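The genes described here encode the nuclear pore complex and the soluble carriers that move cargo through it. Members were all protein-coding genes whose WBcel235 symbol begins with *npp-*, *imb-*, *ima-*, *xpo-* or *ran-* followed by a number. The annotation lists 40 such genes, and 24 of them have a row in the deposited table of 20150 small RNA (sRNA) loci, of which 10062 are siRNA loci. All 24 passed the filter on low counts and were among the 9645 sRNAs (7184 of them siRNAs) that were tested. By prefix, the table holds 16 of 26 *npp-* genes, 1 of 3 *imb-* genes, 2 of 3 *ima-* genes, 1 of 3 *xpo-* genes and 4 of 5 *ran-* genes. The remaining 16, *ima-3*, *imb-1*, *imb-2*, *npp-1*, *npp-2*, *npp-3*, *npp-4*, *npp-7*, *npp-10*, *npp-14*, *npp-16*, *npp-23*, *npp-27*, *ran-1*, *xpo-2* and *xpo-3*, are not analysed here.

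The nuclear pore is a ring of nucleoporins set in the nuclear envelope. The Y complex and the inner ring form its scaffold, transmembrane nucleoporins anchor it, and nucleoporins rich in phenylalanine and glycine fill its channel. Importins carry proteins inward and exportins carry them outward, and the GTPase Ran gives transport its direction: its exchange factor sits on chromatin in the nucleus and its GTPase-activating protein sits in the cytoplasm. In *C. elegans* germ cells, perinuclear granules that hold much of the siRNA machinery lie against nuclear pores. The siRNAs counted here are reads antisense to a gene's coding sequence. They are mostly made by RNA-dependent RNA polymerases on the transcript and bound by Argonaute proteins, and a siRNA level is therefore not a level of the mRNA or the protein. Poly(U) polymerases (PUPs) add uridines to the 3′ ends of RNAs, and PUP-1, also called CDE-1, is known to uridylate siRNAs.

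Total sRNA came from whole hermaphrodites on day 1 of adulthood, grown at 22°C, and was sequenced in 27 libraries of 8 genotypes. The mutants, with 3 libraries each, were *pup-1(tm1021)*, called *pup-1(0)*; the double mutant *pup-1/-2(om129)*, called *pup-1/-2(0)*; the triple mutant, which joins *pup-1/-2(om129)* with *pup-3(tm5089)*; the quadruple mutant, which adds *pup-4(om141)* to that triple mutant; and the other 3 single mutants, *pup-4(om141)*, *pup-3(tm5089)* and *pup-2(tm4344)*, called *pup-4(0)*, *pup-3(0)* and *pup-2(0)*. Wild type was the N2 strain, with 6 libraries and no mutant allele. All of the mutations are heritable deletions present in every tissue, and the strains kept over a balancer were harvested as animals without maternal or zygotic product. Each mutant is represented by 1 allele combination, and each library is a pool of animals, with all tissues mixed. In such bulk samples, fewer cells of a type and less RNA per cell cannot be told apart.

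Libraries held 972048 to 17562388 counts, with a median of 6692414. Levels are given in CPM, counts scaled to a common library size after TMM normalization, which corrects library sizes for composition. Every member had at least 10 counts in every library, and the highest value was 26015 counts. miRNA made up 19.7% of the counts in *pup-1/-2(0)* replicate 1, against 47.4% and 46.0% in its replicates 2 and 3, so that this library stands apart. The miRNA markers of the adult animal were present: the sum of mir-35 to mir-45, the miRNAs taken as markers of oocytes and embryos, with all 11 genes counted, ran from 12325 to 89988 CPM in *pup-1(0)* and 21856 to 32396 CPM in the quadruple mutant, against 23006 to 94082 CPM in wild type. The siRNAs of *pup-1* (named *cid-1* in the annotation) stood at 1119 ± 56.4 CPM in *pup-1(0)* (SD, n = 3), against 1217 ± 220 CPM in wild type (SD, n = 6). Those of *pup-3* stood at 174 ± 15.2 CPM in *pup-3(0)*, against 59.0 ± 21.7 CPM in wild type. The triple and quadruple mutants, with the same *pup-3* allele, had 32.1 ± 6.22 and 41.8 ± 4.41 CPM (SD, n = 3 each). *pup-1(0)*, without that allele, had 9.62 ± 2.02 CPM (SD, n = 3). The siRNAs of *pup-1* and of *pup-3* were counted over the whole gene and so do not check the deletions.

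Adult wild-type animals made siRNAs against every one of the 24 genes, and the level differed widely among them. Per kilobase of coding sequence, *ran-4*, *imb-3* and *ran-5* were highest and *npp-24*, *npp-26* and *xpo-1* lowest. *ran-4*, the *C. elegans* NTF2 that brings Ran back into the nucleus, had 278 ± 50.045 CPM per kb in wild type (SD, n = 6). *imb-3*, an importin of the beta family, had 255 ± 20.7 CPM per kb, and the Ran-binding gene *ran-5* had 159 ± 14.5 CPM per kb. These means exceed those of all other members, whose next highest was *npp-9* at 102 ± 20.8 CPM per kb, while *ran-4* and *imb-3* did not differ beyond their spread. At the low end, *npp-24*, related to the cytoplasmic nucleoporin NUP88, had 14.005 ± 4.72 CPM per kb, *npp-26* had 17.9 ± 14.6 CPM per kb, and the exportin gene *xpo-1* had 18.7 ± 3.46 CPM per kb. These lowest 3 lay within one another's spread. In the 9 libraries of the other 3 single mutants, 19 of the 24 members exceeded the median of all siRNAs tested per kb (21.6 CPM per kb), and their own median was 43.8 CPM per kb.

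The siRNAs of most nuclear pore and transport genes were higher in animals without *pup-1*. In *pup-1(0)*, 9 of the 24 were called differentially abundant (DA; adjusted p under 0.05 in the quasi-likelihood test of edgeR, adjusted by the method of Benjamini and Hochberg over all 9645 sRNAs, and a log2 fold change beyond 1) as higher and 0 as lower. Among all sRNAs tested, 7.44% were DA higher and 13.5% DA lower in that comparison, and among siRNAs 9.24% and 16.4%. Their median log2 fold change was 0.77, beside a median of -0.26 over all sRNAs and -0.21 over siRNAs. Without the fold threshold, 16 members were higher and 3 lower, against 22% and 23.7% of siRNAs. The quadruple mutant had 6 DA higher and 1 lower (8.3% and 12.9% of all sRNAs), the triple mutant 5 and 0 (5.73% and 11.9%), and the double mutant 4 and 1 (8.65% and 12.5%). Median log2 fold changes of the members were 0.66, 0.47 and 0.46 in these 3 strains, beside -0.13, -0.20 and -0.12 over all sRNAs. These comparisons share the wild-type libraries.

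**Figure D1:**
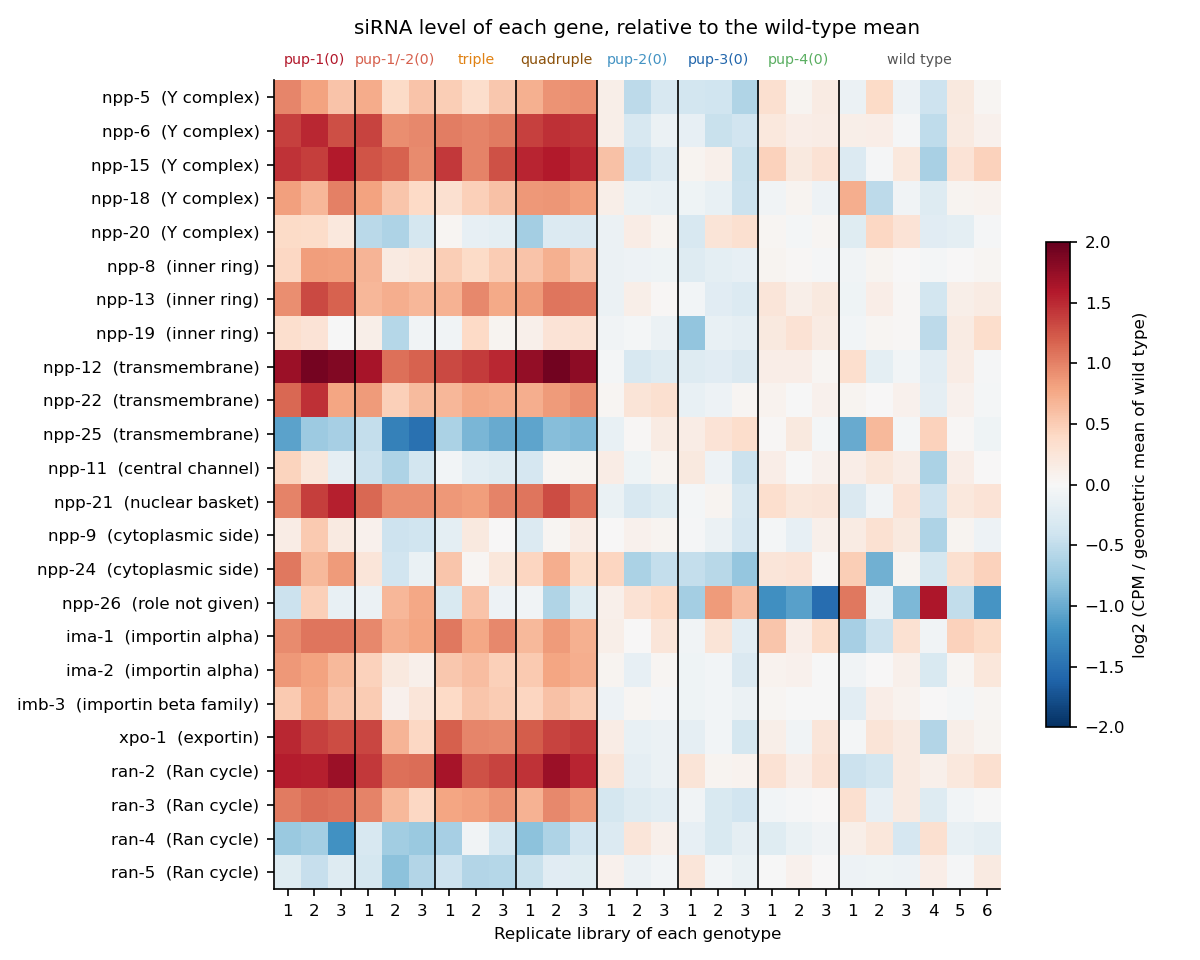
siRNA level of each of the 24 genes (rows, with the role of the product) in each of the 27 libraries (columns, by genotype and replicate), as log2 of CPM over the geometric mean of the 6 wild-type libraries. Red rows in the first 12 columns are genes higher without *pup-1*, *npp-25*, *ran-4* and *ran-5* run blue there, and *npp-26* varies among the wild-type libraries.

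*npp-12*, which encodes the transmembrane nucleoporin gp210, had the highest fold change of the members. The gene lies on chromosome I (6447304 to 6453954, plus strand, WBcel235) and has 5541 coding bases. In *pup-1(0)* its siRNAs stood at 437, 504 and 486 CPM, and in the quadruple mutant at 452, 511 and 462 CPM. The double mutant had 418, 288 and 302 CPM and the triple mutant 335, 354 and 383 CPM, against a lowest, median and highest value of 116, 130 and 170 CPM in wild type. All 12 libraries without *pup-1* thus lay above all 6 of wild type, and the libraries of the other 3 single mutants, at 107 to 147 CPM, did not. The log2 fold change was 1.82 in *pup-1(0)* (standard error 0.12, fold 3.53, edgeR adjusted p = 5.57e-11). It was 1.81 in the quadruple mutant (edgeR adjusted p = 7.55e-11), 1.40 for the triple (6.96e-09) and 1.32 for the double mutant (2.03e-08).

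Of the other transmembrane nucleoporins, *npp-22* was DA higher in *pup-1(0)* and *npp-25* moved the opposite way. *npp-22*, the *C. elegans* NDC1 (chromosome V, 11731120 to 11733472), had 138, 172 and 108 CPM in *pup-1(0)*, against 54.8, 63.6 and 66.0 CPM (lowest, median, highest) in wild type, a log2 fold change of 1.16 (standard error 0.12, edgeR adjusted p = 4.32e-08). Its call in *pup-1(0)* rests on replicate 2, the highest of the 3: without it the log2 fold change was 0.98. With 86.2 to 119 CPM in the double, triple and quadruple mutants, *npp-22* was higher by log2 fold changes of 0.66, 0.73 and 0.84, under the fold threshold.

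*npp-25*, related to the transmembrane protein TMEM33 (chromosome III, 12920266 to 12925997, 813 coding bases), was the only member called DA lower against wild type in the edgeR fit of all libraries. Its siRNAs had 11.3, 6.13 and 5.56 CPM in the double mutant and 7.58, 8.72 and 8.50 CPM in the quadruple mutant, against 7.76, 15.6 and 24.7 CPM (lowest, median, highest) in wild type. The groups overlap through wild-type replicate 1, a library of 2054529 counts. The log2 fold change was -1.13 in the double mutant (standard error 0.27, edgeR adjusted p = 0.00176) and -1.02 in the quadruple mutant (0.26, 0.003). In *pup-1(0)*, with 7.44, 9.47 and 9.88 CPM, it was -0.89 (edgeR adjusted p = 0.0109), and in the triple mutant, with 10.1, 8.35 and 7.82 CPM, it was -0.96 (0.00779). Without wild-type replicate 1 these came to -1.13 and -1.09, both DA, and the triple mutant was also DA without wild-type replicate 6 or its own replicate 1 (-1.04). The call in the quadruple mutant was lost under 8 of 12 other settings, and without wild-type replicate 2 or quadruple replicate 1 (-0.96 each). That in the double mutant was lost with 6 factors of unwanted variation (-0.70) and without its replicate 3 (-0.96).

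**Figure D2:**
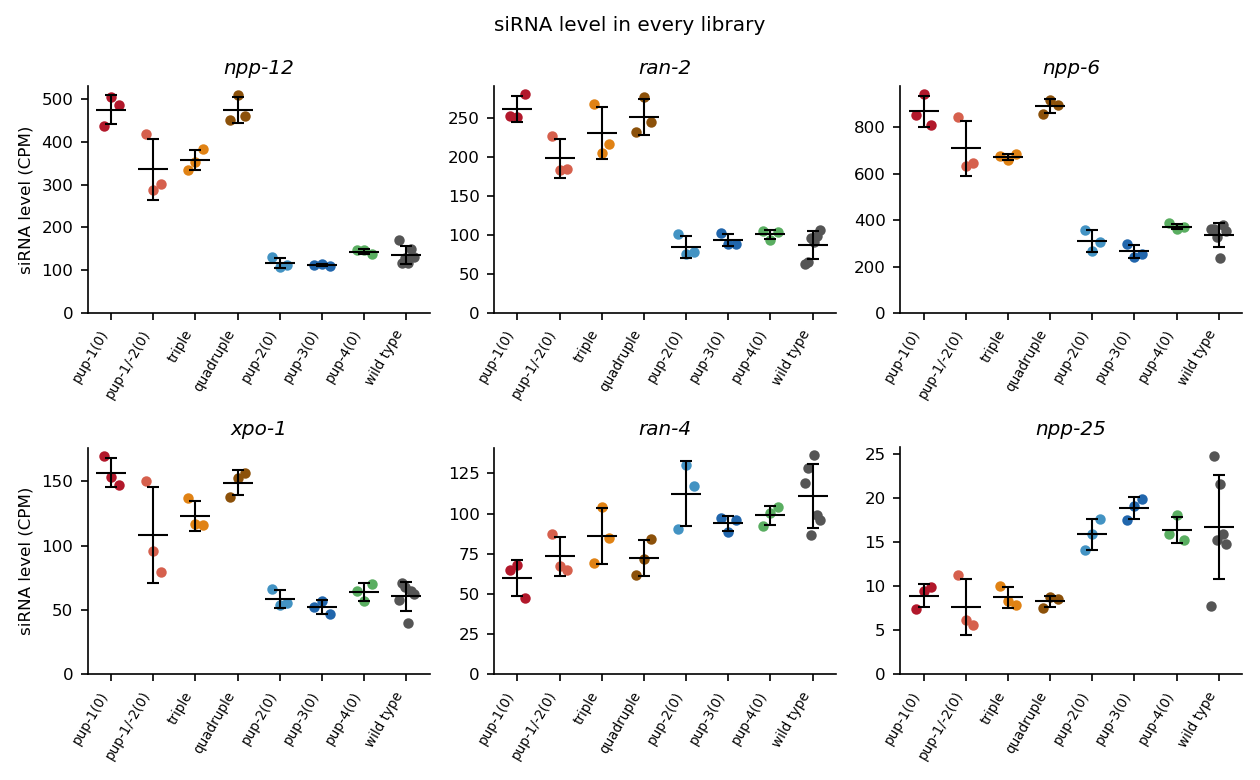
siRNA level in CPM (vertical axis, from 0) of *npp-12*, *ran-2*, *npp-6*, *xpo-1*, *ran-4* and *npp-25* in every library, by genotype; points are libraries, long bars group means and error bars SD. The first 4 genes are higher in the 12 libraries without *pup-1*, and *ran-4* and *npp-25* are lower on average.

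The Y complex, the outer scaffold of the pore, is represented by 5 of its 8 annotated genes, and 2 of the 5 were DA higher in each of the 4 strains without *pup-1*. These were *npp-6*, the *C. elegans* NUP160, and *npp-15*, the *C. elegans* NUP133. *npp-6* (chromosome I, 5176829 to 5182801) had 854, 943 and 810 CPM in *pup-1(0)* and 859, 919 and 896 CPM in the quadruple mutant. In the double mutant it had 846, 634 and 648 CPM and in the triple mutant 676, 658 and 686 CPM, against 234.9, 358 and 377 CPM (lowest, median, highest) in wild type. No library without *pup-1* reached down into the wild-type range. The log2 fold changes were 1.37 in *pup-1(0)* (edgeR adjusted p = 1e-08), 1.41 in the quadruple mutant (9.04e-09), 1.08 for the double (5.62e-07) and 1.00 for the triple mutant (1.57e-06), with a standard error of 0.13 each. The call in the triple mutant sits at the fold threshold and was lost without wild-type replicate 3 (1.00), wild-type replicate 4 (0.95) or triple replicate 3 (0.99), and it was made in 7 of 12 other settings (0.94 to 0.99 where lost); that in the double mutant was lost without its replicate 1 (0.92).

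*npp-15* had 300, 288 and 333 CPM in *pup-1(0)* and 317, 332 and 312 CPM in the quadruple mutant. It had 264, 250 and 212 CPM in the double mutant and 294, 220 and 267 CPM in the triple mutant, against 70.4, 118 and 151 CPM (lowest, median, highest) in wild type. Again the groups do not overlap. Its log2 fold changes were 1.43 in *pup-1(0)* (edgeR adjusted p = 3.74e-06), 1.49 in the quadruple mutant (2.24e-06), 1.19 for the triple (5.59e-05) and 1.08 for the double mutant (0.000147), with a standard error of 0.20 each. Without wild-type replicate 4, the double mutant's value was 0.98, and its call was made in 9 of 12 other settings (0.95 to 1.00 where lost).

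Among the other Y complex genes, *npp-5* (NUP107) and *npp-18* (SEH1) were higher in *pup-1(0)* under the fold threshold, and *npp-20* (SEC13) was lower in the double and quadruple mutants. *npp-5* had a log2 fold change of 0.77 (edgeR adjusted p = 0.000214) and *npp-18* one of 0.80 (0.000719). Both were also higher at an edgeR adjusted p under 0.05 in the double and quadruple mutants, again without being DA. In the triple mutant, 3 of the 5 Y complex genes were higher at that level, beside 1295 of the 7184 siRNAs tested. In the double and quadruple mutants, 1424 and 1560 of these siRNAs were higher at that level. *npp-20* had 42.0, 39.7 and 47.9 CPM in the double mutant and 38.2 to 50.4 CPM in the quadruple mutant, all below the wild-type libraries, which ran from 51.5 to 81.1 CPM. Its log2 fold change was -0.52 in the double mutant (edgeR adjusted p = 0.0122) and -0.42 in the quadruple mutant (0.0352), but 0.29 in *pup-1(0)*, where it did not pass (0.143). SEC13 also belongs to the COPII coat of secretory vesicles.

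In the inner ring, *npp-13*, the *C. elegans* NUP93, was DA higher in *pup-1(0)*. It had 261, 340 and 310 CPM there, against 106, 143 and 154 CPM (lowest, median, highest) in wild type, with a log2 fold change of 1.14 (standard error 0.11, edgeR adjusted p = 2e-08). The groups are well apart, but the fold is near the threshold: 0.98 without wild-type replicate 4, 1.00, just under it, without wild-type replicate 1, and 0.99 with no filter on low counts. In the quadruple mutant, with 246, 285 and 283 CPM, it was 0.98, and it passed without wild-type replicate 5 or 6 or quadruple replicate 1 (1.00 to 1.05). *npp-8*, the *C. elegans* NUP155, was higher in all 4 strains under the fold threshold (log2 fold changes 0.38 to 0.70). Annotated ncRNAs on the same strand cover 93 and 143 of its coding bases. *npp-19*, related to NUP35, did not pass in any of the 4 strains (-0.17 to 0.20).

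*npp-21*, which encodes the *C. elegans* TPR protein of the nuclear basket and has the longest coding sequence of the members (5925 bases, chromosome II, 7599657 to 7608016), was DA higher in the quadruple mutant and in *pup-1(0)*. Its siRNAs stood at 456, 597 and 676 CPM in *pup-1(0)* and at 483, 565 and 492 CPM in the quadruple mutant, against 173, 243 and 278 CPM (lowest, median, highest) in wild type. In the double mutant it had 505, 435 and 438 CPM and in the triple mutant 418, 409 and 456 CPM. All 12 values exceed all of those in wild type. The log2 fold changes were 1.30 in *pup-1(0)* (standard error 0.14, edgeR adjusted p = 9.41e-08) and 1.13 in the quadruple mutant (8.6e-07). They were 0.98 for the double and 0.87 for the triple mutant, under the fold threshold. The double mutant passed it, at 1.01 to 1.03, without wild-type replicate 3, 5 or 6 or without its own replicate 2. Without wild-type replicate 1 or 4, the quadruple mutant also fell under it, at 0.99 and 1.00, as it did in 2 of 12 other settings (0.99 each), and the double mutant passed it in 7 of 12.

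Of the nucleoporins of the channel and of the cytoplasmic side, none was DA in the 4 strains without *pup-1*. *npp-11*, the *C. elegans* NUP62 of the central channel, had 164, 142 and 106 CPM in *pup-1(0)*, against 77.7, 132 and 141 CPM (lowest, median, highest) in wild type, and the groups overlap (log2 fold change 0.15, edgeR adjusted p = 0.488). In the double mutant it had 89.2, 78.8 and 93.2 CPM (-0.50, edgeR adjusted p = 0.0221), again within the wild-type range. *npp-9*, related to the Ran-binding NUP358, did not pass in any of the 4 strains (-0.25 to 0.27). *npp-24* had 53.9, 40.7 and 46.9 CPM in *pup-1(0)*, against 13.3, 29.6 and 36.7 CPM in wild type, a log2 fold change of 0.77 (standard error 0.25, edgeR adjusted p = 0.0173), and it did not pass in the double, triple or quadruple mutant.

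*npp-26*, for which no role is given here, had the widest spread. Its wild-type libraries had 8.83, 16.3 and 61.1 CPM (lowest, median, highest), and the coefficient of variation of 81.2% was the highest of the members, whose median was 18.7%. It had 8.48, 9.41 and 6.94 CPM in *pup-4(0)*, a log2 fold change of -1.60 (standard error 0.49) that did not pass in edgeR (adjusted p = 0.447). DESeq2 put it just under the threshold (adjusted p = 0.0495). The piRNA 21ur-11429 covers 21 bases of its coding sequence on the opposite strand. That piRNA's row held 0 to 13 counts per library, 1.9% of the *npp-26* counts over all libraries.

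The carriers that bind cargo had log2 fold changes above 0 in all 4 strains, most of them under the fold threshold. *xpo-1*, the *C. elegans* CRM1 that exports proteins carrying leucine-rich signals (chromosome V, 7805064 to 7814656), was DA higher in *pup-1(0)*, the triple and the quadruple mutant. It had 170, 154 and 147 CPM in *pup-1(0)* and 138, 152 and 156 CPM in the quadruple mutant. In the triple mutant it had 137, 117 and 116 CPM and in the double mutant 151, 95.9 and 79.2 CPM, against 39.8, 63.5 and 71.2 CPM (lowest, median, highest) in wild type. The groups do not overlap, and replicate 1 of the double mutant is far above its replicates 2 and 3. Log2 fold changes were 1.37 in *pup-1(0)* (standard error 0.16, edgeR adjusted p = 4.93e-07), 1.29 in the quadruple mutant (1.17e-06), 1.02 for the triple (3.85e-05) and 0.84 for the double mutant (0.00031). The call in the triple mutant was lost without wild-type replicate 1 or 4 (1.00 and 0.95) and without triple replicate 1 (0.96), and it was made in 7 of 12 other settings (0.89 to 0.95 where lost); the double mutant passed without its replicate 3 (1.01).

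*imb-3* alone made up 24.3 ± 2.30% of the members' summed CPM in wild type (SD, n = 6). It had 1196, 1423 and 1238 CPM in *pup-1(0)* and 1117, 1253 and 1183 CPM in the quadruple mutant, against 717, 849 and 914 CPM (lowest, median, highest) in wild type. Both groups lie above wild type, with log2 fold changes of 0.62 (edgeR adjusted p = 1.77e-05) and 0.50 (0.000231). In the triple mutant the log2 fold change was 0.48 (0.000434), and in the double mutant, where 1 library at 883 CPM fell inside the wild-type range, it was 0.28 (0.0257). The importin alpha genes *ima-1* and *ima-2*, adaptors that bind nuclear localization signals, were higher by 0.94 and 0.77 in *pup-1(0)* and by 0.65 and 0.67 in the quadruple mutant, all under the fold threshold. In the double mutant *ima-2* did not pass (0.25, edgeR adjusted p = 0.0776). *ima-1* passed the fold threshold in *pup-1(0)* without wild-type replicate 5 (1.04) or 6 (1.02). Both genes are paralogs, and whether any reads match both was not tested.

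The 4 genes of the Ran cycle split into a pair that rose and a pair that fell in *pup-1(0)*. *ran-2*, the *C. elegans* RanGAP (chromosome III, 7933535 to 7937708), had 254, 251 and 281 CPM in *pup-1(0)* and 233, 278 and 246 CPM in the quadruple mutant. It had 227, 184 and 184 CPM in the double mutant and 269, 206 and 218 CPM in the triple mutant, against 63.5, 93.8 and 107 CPM (lowest, median, highest) in wild type. The lowest library without *pup-1* was above the highest of wild type. The log2 fold changes were 1.58 in *pup-1(0)* (standard error 0.14, edgeR adjusted p = 8.11e-09), 1.53 in the quadruple mutant (1.63e-08), 1.39 for the triple (9.87e-08) and 1.18 for the double mutant (9.53e-07). Against wild-type replicates 4 to 6 alone, the double mutant's value was 0.97. *ran-2* begins 479 bases past the end of *npp-15*, on the same strand.

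*ran-3*, the *C. elegans* RCC1 that loads Ran with GTP on chromatin, had 167, 177 and 174 CPM in *pup-1(0)*, against 68.6, 79.5 and 102 CPM (lowest, median, highest) in wild type. Its log2 fold change was 1.07 (standard error 0.12, edgeR adjusted p = 1.96e-07), DA, but 0.94 without wild-type replicate 4, 0.96 without wild-type replicate 2, and under the threshold in 5 of 12 other settings. In the other 3 strains without *pup-1* it was 0.70 to 0.83, with all libraries above wild type.

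*ran-4*, with the shortest coding sequence of the members (399 bases, chromosome I, 8591215 to 8591978), went down. It had 65.1, 68.0 and 47.2 CPM in *pup-1(0)*, all below the wild-type libraries, which had 86.4, 109 and 137 CPM (lowest, median, highest). In the quadruple mutant it had 61.9, 71.5 and 83.9 CPM, also below wild type, and in the double mutant 87.6, 67.4 and 65.2 CPM, with 1 library inside the wild-type range. The log2 fold change was -0.89 in *pup-1(0)* (standard error 0.17, edgeR adjusted p = 0.000261), -0.61 in the quadruple mutant (0.00583) and -0.59 in the double mutant (0.00817). In *pup-1(0)*, *ran-4* was DA lower in 3 of 12 other settings (-1.03 to -1.07). The triple mutant, with 69.0, 104 and 84.9 CPM, did not pass (-0.36, 0.114). *ran-5* was below every wild-type library in all 12 libraries without *pup-1*, at 91.9 to 139 CPM against 150 to 184 CPM, with log2 fold changes of -0.32 in *pup-1(0)* (edgeR adjusted p = 0.0297), -0.30 in the quadruple mutant (0.0361), -0.53 for the triple (0.000901) and -0.58 for the double mutant (0.000318).

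**Figure D3:**
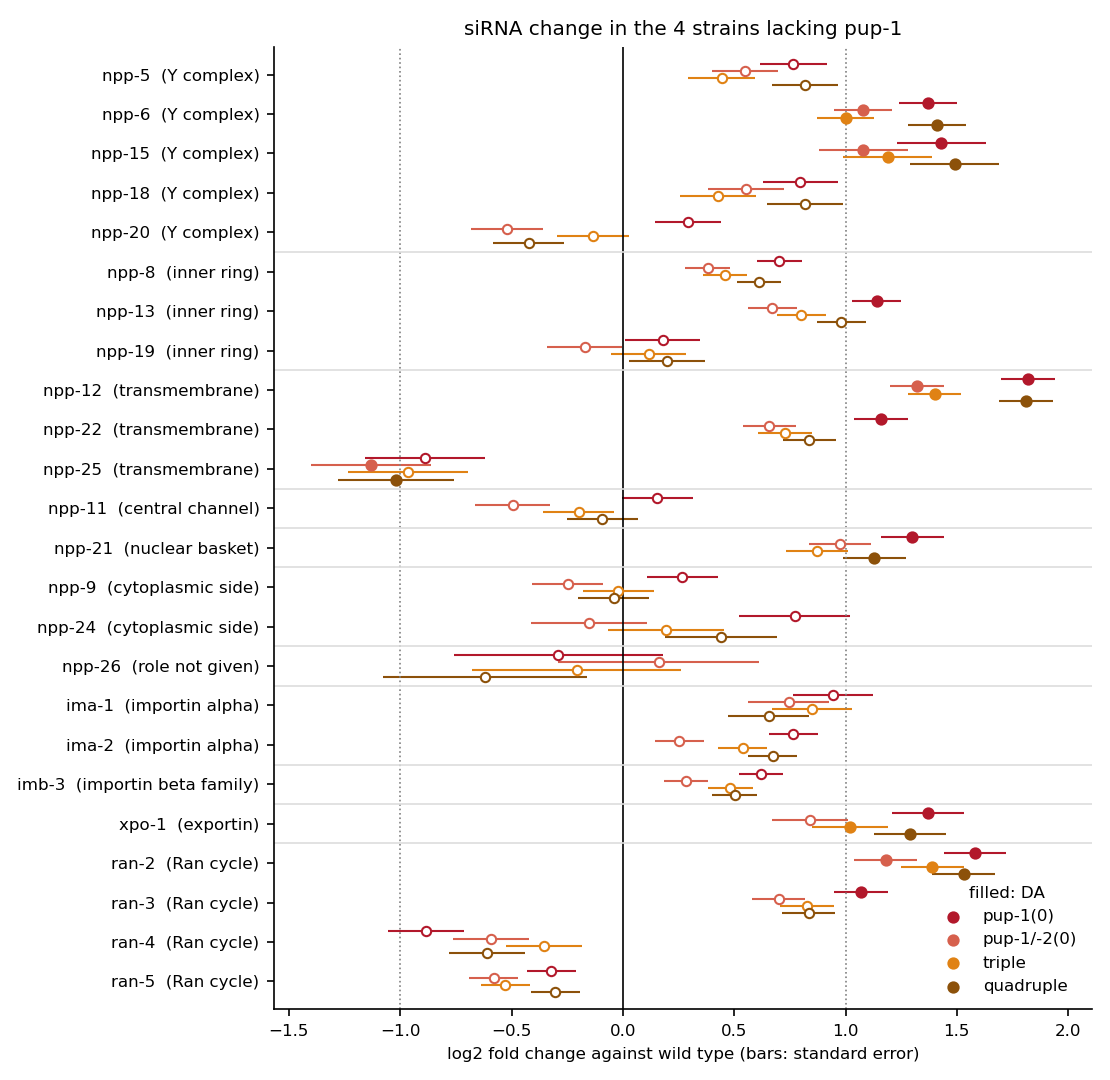
log2 fold change against wild type (horizontal axis, with standard error bars) of the 24 genes, by role, in *pup-1(0)*, *pup-1/-2(0)*, the triple and the quadruple mutant; filled points are DA and dotted lines mark a log2 fold change of 1 either way. *npp-12* and *ran-2* lie farthest to the right in *pup-1(0)*, at 1.82 and 1.58, and *npp-25*, *ran-4* and *ran-5* lie left of 0 in all 4 strains.

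None of the other 3 single mutants had a member called DA by edgeR. In each of these comparisons, 0 of 24 passed in edgeR, with 1, 5 and 1 members at an unadjusted p under 0.05 in *pup-4(0)*, *pup-3(0)* and *pup-2(0)*, beside 7.13%, 11.2% and 8.48% of all sRNAs. DESeq2 called 1, 0 and 0. With all 6 wild-type libraries, DA sRNAs were rare there altogether, at 0.0518%, 0.404% and 0.518% of those tested. The members' median log2 fold changes were 0.05, -0.17 and -0.05, beside -0.04, -0.06 and -0.04 over all sRNAs. The 5 genes under 0.05 unadjusted in *pup-3(0)* had no edgeR adjusted p below 0.228. Against wild-type replicates 1 to 3 alone, sRNAs DA higher and lower numbered 33 and 170, 22 and 11, and 31 and 18 in these mutants. Against replicates 4 to 6 alone they numbered 1 and 8, 146 and 112, and 126 and 109. No member was DA in either set.

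The summed siRNAs of the 24 genes give the same picture on the scale of levels. They came to 6281 ± 363 CPM in *pup-1(0)*, 4863 ± 679 CPM in the double mutant, 5204 ± 67.6 CPM in the triple mutant and 5898 ± 361 CPM in the quadruple mutant (SD, n = 3 each), against 3456 ± 247 CPM in wild type (SD, n = 6). All 12 values without *pup-1*, of which the lowest was 4404 CPM, exceeded the highest wild-type value of 3628 CPM. That separation depends on the scaling: with total counts as the only scaling, double mutant replicates 2 and 3 had sums of 3428 and 3628 CPM, inside the wild-type range of 2312 to 4318 CPM. The double mutant's replicate 1 had 5643 CPM and its replicates 2 and 3 had 4404 and 4544 CPM. The sums were 3603 ± 82.4 CPM in *pup-4(0)*, 3093 ± 148 CPM in *pup-3(0)* and 3304 ± 102 CPM in *pup-2(0)* (SD, n = 3 each). As a share of all siRNA counts, the members took 0.905 ± 0.0226% in the quadruple mutant and 0.862 ± 0.00676% in *pup-1(0)*, against 0.503 ± 0.0617% in wild type. Without *imb-3*, the sum was 4995 ± 245 CPM in *pup-1(0)*, against 2620 ± 232 CPM in wild type. No test was made of these sums.

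**Figure D4:**
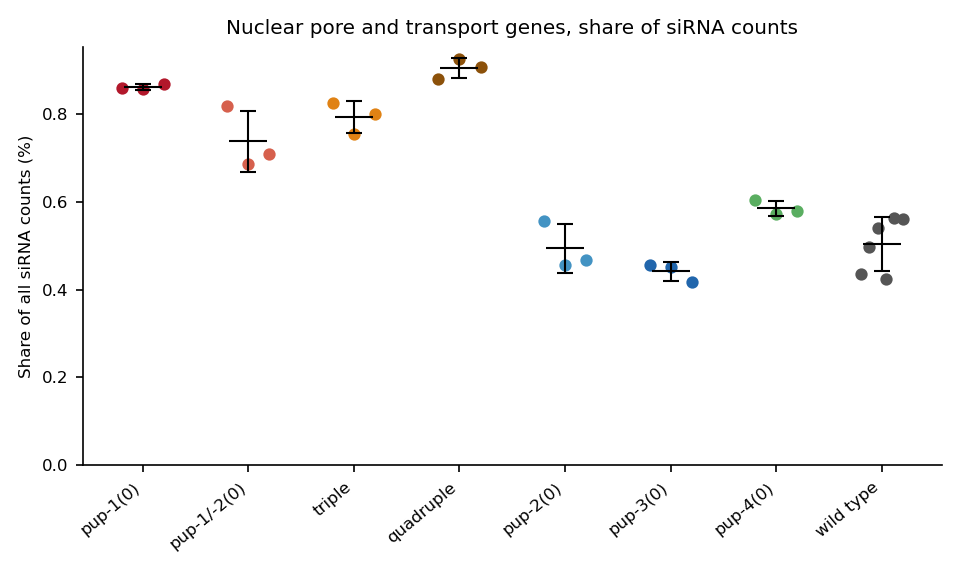
Share of all siRNA counts taken by the 24 genes (percent, vertical axis from 0), by genotype; points are libraries, long bars means and error bars SD. Shares run from 0.686% to 0.926% in the 12 libraries without *pup-1* and from 0.418% to 0.605% in the 15 libraries with it.

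Among the strains without *pup-1*, those that also lack further *pup* genes had no member DA by the same test when compared stepwise. *pup-1(0)* and the double mutant carry different *pup-1* alleles. Loss of *pup-2* and the change of allele therefore cannot be told apart in the first of these comparisons. From *pup-1(0)* to the double mutant, 22 of 24 members had a log2 fold change below 0, with a median of -0.35 beside -0.05 over all sRNAs, 0 were DA (4.12% of all sRNAs) and 6 had an adjusted p under 0.05 as lower (3.15% of all sRNAs). The 6 were *npp-20* (-0.81, edgeR adjusted p = 0.00854), *npp-11* (-0.65, 0.0395), *ima-2* (-0.51, 0.0208), *npp-12* (-0.50, 0.0371), *npp-22* (-0.50, 0.0321) and *npp-13* (-0.47, 0.0319). Without the double mutant's replicate 1 the median was -0.52 and 1 member was DA, *npp-24* at -1.13 (edgeR adjusted p = 0.0224). The median and the DA share over all sRNAs in that fit are not given here, so these values cannot be read as particular to the members. At an unadjusted p under 0.05 there were 13 members (25.9% of all sRNAs), and DESeq2 called 0 DA.

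From the double to the triple mutant the members' median was 0.13, beside -0.02 over all sRNAs. In that comparison 0 members were DA (0.487% of all sRNAs) and 2 had an unadjusted p under 0.05 (12% of all sRNAs). From the triple to the quadruple mutant the members' median was 0.13 as well, beside 0.10 over all sRNAs. Here 0 were DA (0.612%) and 3 had an unadjusted p under 0.05 (14.2%). DESeq2 called 0 in both. The quadruple libraries nonetheless all lay above the triple libraries for 8 members, among them *npp-6* (859 to 919 CPM against 658 to 686 CPM) and *npp-12* (452 to 511 CPM against 335 to 383 CPM), beside 21% of all sRNAs with that order. Tests of whether loss of *pup-3* acted differently in *pup-1/-2(0)* than in wild type, and loss of *pup-4* differently in the triple mutant than in wild type, passed for 0 members by edgeR (0.653% and 0.166% of all sRNAs), with 3 and 0 at an unadjusted p under 0.05 (11.5% and 6.5%).

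With the 4 strains without *pup-1* set against the 4 genotypes with it, 7 members were DA higher (*npp-12*, *ran-2*, *npp-6*, *npp-15*, *xpo-1*, *npp-21* and *ran-3*) and 1 lower (*npp-25*), beside 8.69% and 13.9% of all sRNAs. The calls of *ran-3* and *npp-25* are near the fold threshold: *ran-3* was called in 7 of 12 other settings and in 16 of 27 fits with a library left out (0.93 to 1.00 where lost), and *npp-25* in 7 of 12 and 21 of 27 (-0.81 to just short of the threshold where lost). The other 6 calls held in all of these settings and fits. For 11 members all 12 libraries without *pup-1* lay above all 15 with it, and for 1, *ran-5*, below, beside 8.6% and 5.85% of siRNAs. This comparison uses the same libraries as those above and is no separate evidence.

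Among the members, longer genes had the higher fold changes. Over the 24 members, coding length and the log2 fold change had a Spearman correlation of 0.68 in *pup-1(0)*, 0.71 in the double, 0.72 in the triple and 0.71 in the quadruple mutant. Over all 7184 siRNAs tested the same correlations were 0.35, 0.32, 0.33 and 0.39. The 4 members with the shortest coding sequences are *ran-4* (399 bases), *npp-25* (813), *npp-20* (939) and *ran-5* (1020), and *npp-12* (5541) and *npp-21* (5925) are the longest. The siRNA level per kb, taken from the other 3 single mutants, had correlations of -0.38, -0.39, -0.31 and -0.26 with the log2 fold change over the members, and 0.18, -0.21, 0.01 and -0.17 over all siRNAs. These describe genes within 1 data set, which share libraries and are no replicates. Gene length enters the level per kb, so the measures are not independent.

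**Figure D5:**
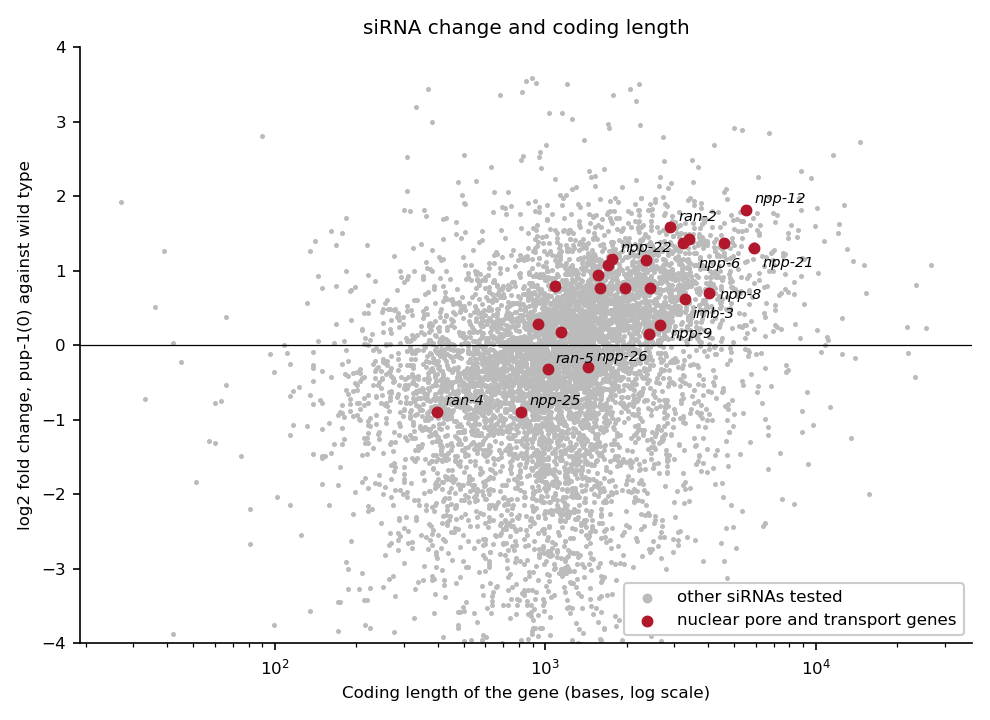
log2 fold change of *pup-1(0)* against wild type (vertical axis, shown within 4 either way, with 108 of the other siRNAs outside) against the coding length of the gene in bases (horizontal log axis), for the 24 nuclear pore and transport genes (red) and the other siRNAs tested (grey). The shortest members, *ran-4* and *npp-25*, lie at -0.89 and the long *npp-12* at 1.82, and the red points have a Spearman correlation of 0.68.

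Other genes of the nuclear envelope and of RNA export were looked at from a list of 27, 17 of which had a row and were tested. For *pup-1(0)*, 1 was DA higher and 0 lower, beside 7.44% and 13.5% of all sRNAs, with a median log2 fold change of 0.27, beside 0.77 for the nuclear pore and transport genes and -0.21 over siRNAs. That gene was *zyg-12*, which ties the centrosome to the nuclear envelope, at 1.49 (edgeR adjusted p = 1.19e-07). It was also DA higher in the double (1.15), triple (1.19) and quadruple mutants (1.55). In the double mutant *lem-2*, an inner nuclear membrane protein, was DA lower (-1.12, edgeR adjusted p = 0.000226), and in the triple mutant *nxt-1*, a partner of the mRNA export receptor, was DA lower (-1.30, 0.00856). By edgeR, no gene of this list was DA in the other 3 single mutants.

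Among the tissue markers, the miRNAs of oocytes and embryos, muscle, intestine and adult timing overlapped between each strain without *pup-1* and wild type. Adult timing rests on 1 of its 2 listed genes. The wild-type ranges are wide, so that an overlap does not show an equal content of these tissues. The muscle miRNA mir-1 had 1209 to 7317 CPM in *pup-1(0)* and 8661 to 17234 CPM in the quadruple mutant, against 3100 to 91642 CPM in wild type. The 2 intestinal miRNAs together had 55.7 to 116 CPM in *pup-1(0)* and 57.2 to 110 CPM in the quadruple mutant, against 59.6 to 1682 CPM in wild type. The 2 neuronal miRNAs together had the lowest levels of these markers, at 1.85 to 12.4 CPM in *pup-1(0)* against 1.11 to 7.04 CPM in wild type. Their part in the siRNA levels was not tested.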

How the data were processed

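Small RNA of 27 libraries was sequenced by the authors after 5′ polyphosphatase treatment. Per the paper's methods and the submitters' processing notes, adapters were removed with cutadapt, reads of 15 to 26 nt were kept and mapped with HISAT2, and smalldisco counted them; versions are not given in the sources used here. The authors deposited counts as whole numbers without normalization. A gene's siRNA count sums reads antisense to its coding sequence. Genotypes came from the labels. Symbols, positions and coding lengths came from Ensembl 115 (WBcel235), which matched 20147 of 20150 IDs and is not the annotation the authors counted with. No sequence is printed, because no sequence was given for these genes.

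Counts were tested in edgeR 4.0.16 (R 4.3.3): filterByExpr with a minimum count of 10, TMM scaling, and a robust quasi-likelihood fit of all libraries with genotype as its only term. DA means a Benjamini-Hochberg adjusted p under 0.05 over all 9645 sRNAs and an absolute log2 fold change over 1, thresholds of the paper. Tests were two-sided. The paper names RUVSeq with 6 factors but no functions, so factors, in an implementation written here, were an alternative, beside DESeq2 1.42.0, other scalings, filters and library sets, and a replicate block. The script was tested on simulated data. Figures were drawn with matplotlib 3.10.9. Depth ran from 972048 to 17562388 counts per library, so 3 counts, taken as the floor, correspond to 0.144 to 3.74 CPM, which covers counting error only.

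Members, roles and lists were chosen with earlier results of these data known. All members were to be accounted for; those named with values are the members DA against wild type, the 3 highest and 3 lowest per kb in wild type, and *xpo-1*, *ran-2*, *ran-3* and *npp-11* as defining members of their roles. Other named genes were chosen after their values were seen. The labels name no batch, and which wild-type libraries ran with which mutants is not given in the sources used here.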

Additional observations from a re-analysis of the deposited data

Results flagged for a closer look

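In wild type, 1 of the 6 libraries lay apart from the others for 3 of the 26 values examined (the 24 members, their sum and their share of siRNA counts), by the gap to its nearest neighbour over the whole range (Dixon's ratio, at its 95% critical value). Chance alone would mark about 1 in 20 such groups. *npp-11* was lowest in wild-type replicate 4, at 77.7 CPM (ratio 0.695), and *npp-6* was also lowest in that library, at 234.9 CPM (0.64). *npp-18* was highest in wild-type replicate 1, at 92.4 CPM (0.627), which is where the wild-type range reached that of *pup-1(0)*, at 88.5 to 112 CPM.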

How the results depend on the processing

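In the 4 strains without *pup-1* against wild type and with these strains pooled, no log2 fold change of a member with an adjusted p under 0.05 changed its sign in the alternatives run: of 1116 values under the other settings, 1039 kept their side of the DA threshold, 41 fell below it and 36 rose above it, and of 1197 with a library left out, 1148, 35 and 14. Counts of DA members moved by over 1.5 times as follows. In the triple mutant, the count was 9 in place of 5 with total counts as the only scaling, 3 with 6 factors of unwanted variation, and 3 without wild-type replicate 4. In the quadruple mutant it was 11 in place of 7 with total counts alone, and in the double mutant 3 in place of 5 with wild-type replicates 4 to 6 alone. Calls over all sRNAs moved too. With total counts alone, higher calls went from 553 to 873 and lower calls from 1146 to 841 in the triple mutant. In the quadruple mutant they went from 801 to 1218 and from 1245 to 799. With 6 factors, the triple mutant had 773 higher and 1113 lower. Against wild-type replicates 4 to 6, the double mutant had 1322 higher and 1401 lower, in place of 834 and 1205. DESeq2 called 1 member in *pup-4(0)* (*npp-26*) in place of 0, beside 49 of all sRNAs in place of 5. Without *pup-1/-2(0)* replicate 1, 1 member was called against *pup-1(0)* in place of 0. Calls over all sRNAs are not given for fits with a library left out. With each library left out in turn, counts ran from 7 to 10 in *pup-1(0)*, 4 to 6 in the double, 3 to 6 in the triple and 6 to 8 in the quadruple mutant, 6 to 8 with the strains pooled, 0 to 1 for the double mutant against *pup-1(0)*, and 0 to 0 in the other comparisons. The cause was not tested. Total counts moved the median of all sRNAs in the quadruple mutant from -0.13 to 0.17, and the members' median relative to it from 0.79 to 0.74; in the triple mutant they moved it from -0.20 to 0.04, with 0.67 under both. The share of higher calls among all DA sRNAs then moved from 39.1% to 60.4% in the quadruple mutant, from 32.5% to 50.9% in the triple mutant and from 64.1% to 33.3% in *pup-3(0)*; for *pup-3(0)* it was 53.1% with DESeq2 size factors. Without the 5 shallowest libraries (972048 to 2054529 counts), an alternative chosen after seeing the data, the counts were 11, 4, 5 and 6 in *pup-1(0)*, the double, triple and quadruple mutants. Over all sRNAs, 639, 1488, 682 and 1025 were then higher and 1542, 1389, 1160 and 1522 lower. Whether the labels' replicate numbers pair the libraries was checked against wild-type replicates 1 to 3 only. Of 21 same-numbered pairs, 5 had a correlation of deviations over 0.1 (-0.176 to 0.425). Of the 21 libraries, 8 correlated best with their own number. With groups of 3 libraries, this check cannot settle whether the libraries were paired. With the number as a replicate block, counts were 9, 6, 4 and 6 in the 4 strains without *pup-1*, 6 with the strains pooled and 0 elsewhere. Over all sRNAs, 695, 660, 522 and 865 were then higher and 1083, 1006, 1014 and 1311 lower in these 4 strains.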
